A study of Mus musculus with 6 samples.

Results

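Scgb1a1, Scgb3a1 and Scgb3a2 are the 3 secretoglobin genes that club cells of the airway express at high levels, and all 3 were found by symbol among the 56980 genes of a lung expression matrix. They were chosen by their higher level in DPP3_KO than in Ctrl lungs of this same matrix, so their differences between the groups are given below as a description, with no test. The DPP3_KO group (n = 3) holds lungs of NSG mice, an immunodeficient strain, in which MDA-MB-231 cells lacking DPP3 had grown in the mammary fat pad for 5 weeks. The Ctrl group (n = 3) holds lungs of NSG mice that carried MDA-MB-231 cells with DPP3, over the same time. The MDA-MB-231 line comes from a human breast cancer without hormone receptors, and DPP3 encodes dipeptidyl peptidase 3, so the deletion lies in the graft, while the genes described here are mouse genes. The series asks how the lung responds to DPP3 carried in exosomes of the tumour. The age and sex of the mice, the number of knockout clones and any pooling of animals were not stated. Replicates are numbered in the labels without being tied to separate mice, so every error below is the spread between these samples.

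Secretoglobins are small secreted proteins that pair into dimers around a hydrophobic pocket. Scgb1a1, also called uteroglobin or CC10, is the classical product of club cells, the dome-shaped secretory cells of the bronchioles, and is among the most abundant proteins of airway lining fluid, where it is held to dampen inflammation. Scgb3a2, also called UGRP1, is a product of the same cells and is reported to bind the macrophage scavenger receptor Marco, while Scgb3a1, also called UGRP2 or HIN-1, is best known from secretory cells of the larger airways. The level of each can follow the number of such cells or the RNA each cell holds. In bulk tissue a change in cell number and a change in RNA per cell cannot be told apart.

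The Scgb3a1 promoter is shown because RefSeq's promoter table held an entry for this gene alone among the 3. Scgb3a1 also had the largest difference of the 3. The stretch covers the 250 bases before the gene's start on the plus strand, in build GRCm38.p6, which is an earlier build than the GRCm39 named for the expression table. Capitals mark matches to 2 motifs searched on both strands.
Scgb3a1, chr11:49663345-49663594: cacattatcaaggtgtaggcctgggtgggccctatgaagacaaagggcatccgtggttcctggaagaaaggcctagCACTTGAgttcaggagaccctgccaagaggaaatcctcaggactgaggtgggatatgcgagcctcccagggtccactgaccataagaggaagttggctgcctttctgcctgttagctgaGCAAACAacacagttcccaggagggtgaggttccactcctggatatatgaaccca
The first, TCAAGTG, is a form bound by the lung transcription factor NKX2-1. It lay on the minus strand 174 to 168 bases before the start, and 2.68% of 32851 promoter windows of the same length hold it. The second, TGTTTGC, is a variant of the forkhead motif bound by FOXA proteins, and lay on the minus strand 55 to 49 bases before the start (4.30% of windows). The forkhead form TGTTTAC (3.17% of windows) and the C/EBP form TTGCNNAA (9.56%) had no match in this window. The 2 matches do not overlap, the motifs were picked after the sequence was seen, and a match is a description of the letters, not of binding.

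The values are TPM, transcript abundances that divide reads by gene length and make every library sum to 1000000 up to rounding. They keep no sequencing depth, so no counting interval is given. Between 22904 and 23825 genes lay above 0 in DPP3_KO libraries, and between 23775 and 24477 in Ctrl libraries. Lung identity was clear in every library, with the alveolar surfactant gene Sftpc at 14518.9 to 24608.4 TPM in DPP3_KO and 20434.2 to 38794.1 TPM in Ctrl. A gene is called when limma's Benjamini-Hochberg adjusted p for DPP3_KO minus Ctrl on log2(TPM + 1) is under 0.05 over all 15650 genes tested. As deposited, 1.38% of tested genes were called higher and 34.0% lower in DPP3_KO, and the median log2 difference of all genes was -0.60. Median-of-ratios scaling, which takes the typical gene as the yardstick, brought that median to -0.02, and then 1.94% were called higher and 0.888% lower. Values so scaled are called scaled values below. These calls lean on Ctrl replicates 1 and 2, since as deposited 1 gene was called higher and 18 lower without Ctrl replicate 1, and 4 and 71 without Ctrl replicate 2. Without Ctrl replicate 3 there were 136 and 4096, and without a DPP3_KO replicate 123 to 146 higher and 1596 to 4993 lower. Each call named below rests on all 6 libraries. Differences are on the log2(TPM + 1) scale, on which differences between low values come out too small.

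Scgb1a1 (ENSMUSG00000024653) had 287457, 217097 and 278787 TPM in DPP3_KO replicates 1 to 3, against 76933, 101282 and 71578 TPM in Ctrl replicates 1 to 3. Every DPP3_KO library lay above every Ctrl library, and the lowest DPP3_KO value was 2.14 times the highest Ctrl value. The means were 261113 ± 38365 TPM in DPP3_KO and 83264 ± 15832 TPM in Ctrl (SD, n = 3 each), a 3.14-fold ratio and a log2 difference of 1.65 ± 0.20 (SE). On scaled values the difference was 2.32 ± 0.24. Scgb1a1 was the most abundant gene of all 6 libraries.

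Scgb3a2 (ENSMUSG00000038791) had 4756, 5635 and 4072 TPM in DPP3_KO replicates 1 to 3, against 1052, 2192 and 1015 TPM in Ctrl replicates 1 to 3. The groups did not overlap, and the highest Ctrl library for this gene, replicate 2, was also the highest for Scgb1a1. In DPP3_KO the order differed, since replicate 2 was lowest for Scgb1a1 and highest for Scgb3a2. The means were 4821 ± 784 TPM in DPP3_KO and 1419 ± 669 TPM in Ctrl (SD, n = 3 each), with a log2 difference of 1.85 ± 0.39 (SE), or 2.51 ± 0.32 on scaled values. Scgb3a2 ranked 14th, 14th and 19th by TPM in the DPP3_KO libraries and 84th, 35th and 112th in the Ctrl libraries.

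Scgb3a1 (ENSMUSG00000064057) had 1585, 4480 and 3839 TPM in DPP3_KO replicates 1 to 3, against 45.0, 325 and 470 TPM in Ctrl replicates 1 to 3. Here too every DPP3_KO library was higher, but the spread was wide, with a coefficient of variation of 46.1% in DPP3_KO and 77.2% in Ctrl, against 14.7% and 19.0% for Scgb1a1. The log2 difference was 3.97 ± 1.14 (SE), the 4th highest of the 15650 tested genes, while Scgb3a2 stood 41st and Scgb1a1 59th. Its size rested in part on Ctrl replicate 1, since without that library the log2 difference was 2.94, and leaving out any other library gave 3.69 to 4.62. On scaled values it was 4.63 ± 1.15.

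**Figure D1:**
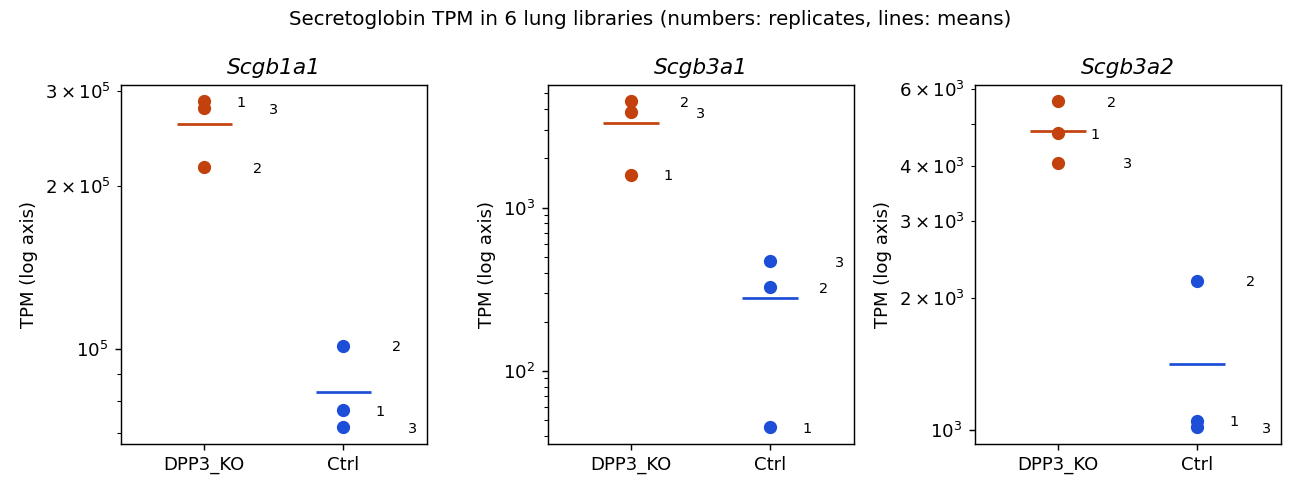
TPM of the 3 secretoglobins on log axes, with DPP3_KO libraries (orange) left of Ctrl libraries (blue), replicate numbers beside the points and lines at the group means. For each gene all DPP3_KO points lie above all Ctrl points, and Ctrl replicate 1 stands lowest for Scgb3a1 at 45.0 TPM.

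TPM sums to a fixed total, so a larger share of one gene leaves less for the others. Scgb1a1 made up 28.7%, 21.7% and 27.9% of all TPM in DPP3_KO replicates 1 to 3, against 7.69%, 10.1% and 7.16% in Ctrl replicates 1 to 3. TPM divides reads by gene length, and at 476 bases Scgb1a1 is short, so its share of the sequenced bases is smaller. When each gene's TPM was weighted by its deposited length, Scgb1a1 made up 10.0%, 7.18% and 10.4% in DPP3_KO and 1.96%, 2.47% and 1.84% in Ctrl. The effective lengths used for the TPM are not given, so these weighted shares are approximate. The other members were far smaller, with Scgb3a2 at a mean of 0.482% of TPM in DPP3_KO and 0.142% in Ctrl, and Scgb3a1 at 0.330% in DPP3_KO and 0.0280% in Ctrl. With the 3 genes taken out and the rest rescaled to the same sum, the median log2 difference of all genes was -0.32 in place of -0.60.

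**Figure D2:**
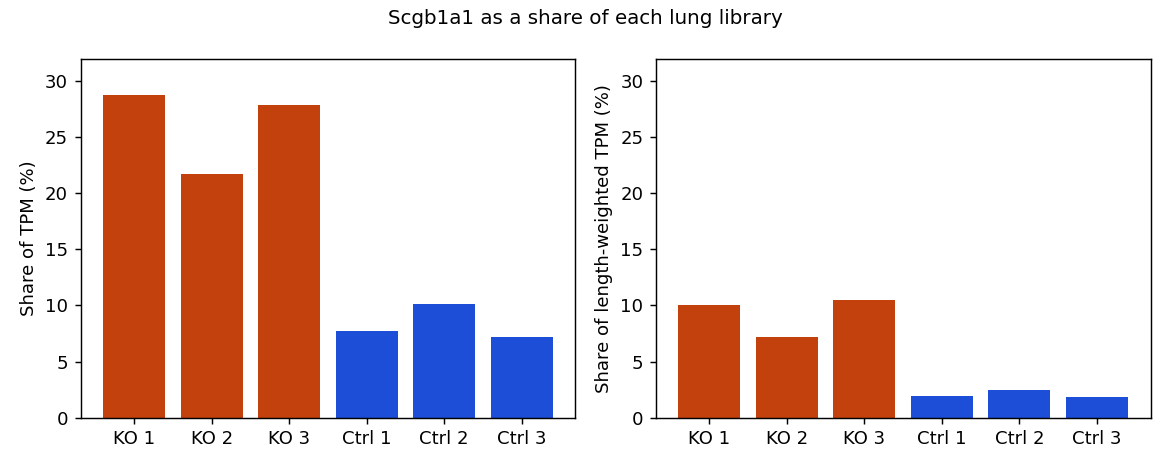
Scgb1a1 in each library as a share of TPM (left) and of TPM weighted by gene length (right), in percent, with DPP3_KO bars orange and Ctrl bars blue. DPP3_KO bars reach 21.7 to 28.7% on the left and 7.18 to 10.4% on the right, and Ctrl bars 7.16 to 10.1% and 1.84 to 2.47%.

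The ratio of 2 genes within a library does not depend on how the libraries are scaled. Scgb3a2 as a share of Scgb1a1 was 1.65%, 2.60% and 1.46% in DPP3_KO replicates 1 to 3, against 1.37%, 2.16% and 1.42% in Ctrl replicates 1 to 3. The groups overlapped, and the log2 difference of this ratio was 0.19 ± 0.33 (SE). Scgb3a1 as a share of Scgb1a1 was 0.551%, 2.06% and 1.38% in DPP3_KO, against 0.0585%, 0.320% and 0.656% in Ctrl. These values also overlapped, since Ctrl replicate 3 lay above DPP3_KO replicate 1, and the log2 difference was 2.33 ± 1.18. Over the 6 libraries Pearson's r of log2(TPM + 1) was 0.944 between Scgb1a1 and Scgb3a2, 0.836 between Scgb1a1 and Scgb3a1, and 0.858 between Scgb3a1 and Scgb3a2. The 6 points share the difference between groups that was used to choose the genes.

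Of the rest of the secretoglobin family, only Scgb1c1 was above 0 in any library. The table holds 70 genes whose symbol starts with Scgb, of which 30 are named as pseudogenes, and 66 of the 70 were listed at 0 in all 6 libraries, from the large 1b and 2b groups of mouse androgen-binding protein genes apart from Scgb2a2. Scgb1c1 (ENSMUSG00000038801) had 72.5, 42.7 and 75.1 TPM in DPP3_KO, against 38.0, 60.9 and 25.1 TPM in Ctrl. The groups overlapped, and the gene did not pass (log2 difference 0.65 ± 0.36 SE, limma adjusted p = 0.181, and 1.30 with adjusted p = 0.113 on scaled values).

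Of 18 other club cell genes 17 were tested, and apart from Retnla each of these had a lower log2 difference than any of the 3 secretoglobins. The secretoglobins were chosen for their higher level in DPP3_KO, which favours that order. As deposited, 5 of the 17 other genes were called higher, 0 lower (limma, 0 also at an unadjusted p under 0.05) and 12 did not pass. Their median log2 difference was 0.57, beside -0.60 over all genes, of which 1.38% were called higher and 34.0% lower. On scaled values 4 of the 17 were called higher and their median was 1.21, beside 1.94% and -0.02 over all genes. All 17 then stood above 0, and 14 were higher at an unadjusted p under 0.05. Without Ctrl replicate 1, and likewise without Ctrl replicate 2, 0 of the 17 were called by limma, while 6 and 5 of them were higher at an unadjusted p under 0.05.

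Among the members that rose were Cldn10, Cyp2a5, Gsta3 and Lypd2. Cldn10, a tight junction claudin of club cells, had 24.6, 32.2 and 34.7 TPM in DPP3_KO, against 11.5, 13.8 and 13.9 TPM in Ctrl, with no overlap (log2 difference 1.15 ± 0.20 SE, limma adjusted p = 0.0155). Cyp2a5, a cytochrome P450, rose by 1.14 (adjusted p = 0.0347). The glutathione transferase gene Gsta3 rose by 0.85 (adjusted p = 0.0315), and Cyp2a5 and Gsta3 have close relatives that can share their reads. With the length trend described below removed from scaled values, Cyp2a5 and Gsta3 no longer passed (adjusted p = 0.0571 and 0.0744), nor did they with TPM rescaled without the 3 secretoglobins (adjusted p = 0.0603 and 0.0536), after quantile normalization (adjusted p = 0.0780 and 0.0613) or with no filter (adjusted p = 0.0784 and 0.0657). Lypd2, a surface protein gene of airway secretory cells, rose by 1.35 (adjusted p = 0.0358) as deposited but did not pass on scaled values (2.01, adjusted p = 0.0548).

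As deposited, values of Cyp2f2 and Cbr2, abundant detoxifying enzymes of club cells, overlapped between the groups. Cyp2f2, the main club cell cytochrome P450, had 3260, 2056 and 1582 TPM in DPP3_KO, against 1477, 1959 and 1275 TPM in Ctrl (log2 difference 0.51, limma adjusted p = 0.217). The carbonyl reductase gene Cbr2 had 7792, 4591 and 5557 TPM in DPP3_KO, against 5237, 6219 and 4149 TPM in Ctrl (0.19, adjusted p = 0.598). On scaled values Cyp2f2 stood at 1.17 and Cbr2 at 0.85, and neither passed (limma adjusted p = 0.0889 and 0.179). Cyp4b1, another P450, stood at -0.50 as deposited (adjusted p = 0.102) and 0.16 on scaled values. Cyp2f2, Cbr2 and the ratios below were singled out after their values were seen. Retnla, Pon1 and the retinal dehydrogenase relative Aldh1a7 stood at 2.15, 0.69 and 0.72 and did not pass, at adjusted p = 0.0567, 0.0965 and 0.126. On scaled values these 3 genes also did not pass.

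Set against Cyp2f2 and Cbr2, Scgb1a1 was higher in every DPP3_KO library than in any Ctrl library. There were 88.2, 106 and 176 Scgb1a1 transcripts for each Cyp2f2 transcript in DPP3_KO replicates 1 to 3, against 52.1, 51.7 and 56.1 in Ctrl replicates 1 to 3, on the TPM scale. For each Cbr2 transcript there were 36.9, 47.3 and 50.2 in DPP3_KO, against 14.7, 16.3 and 17.3 in Ctrl, a 2.77-fold ratio. Neither pair of groups overlapped, whereas the ratio of Scgb1a1 to Cldn10 did overlap (11704, 6734 and 8041 in DPP3_KO, against 6690, 7355 and 5161 in Ctrl). Scgb3a2 to Cyp2f2 was 1.46, 2.74 and 2.57 in DPP3_KO, against 0.712, 1.12 and 0.796 in Ctrl, again without overlap. Against the retinal dehydrogenase gene Aldh1a1, the ratio of Scgb1a1 did not overlap (124, 230 and 290 in DPP3_KO, against 82.7, 95.3 and 103 in Ctrl), but that of Scgb3a2 did (2.06, 5.97 and 4.24 in DPP3_KO, against 1.13, 2.06 and 1.46 in Ctrl). Since the secretoglobins were chosen on this contrast, these ratios are not tested.

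**Figure D3:**
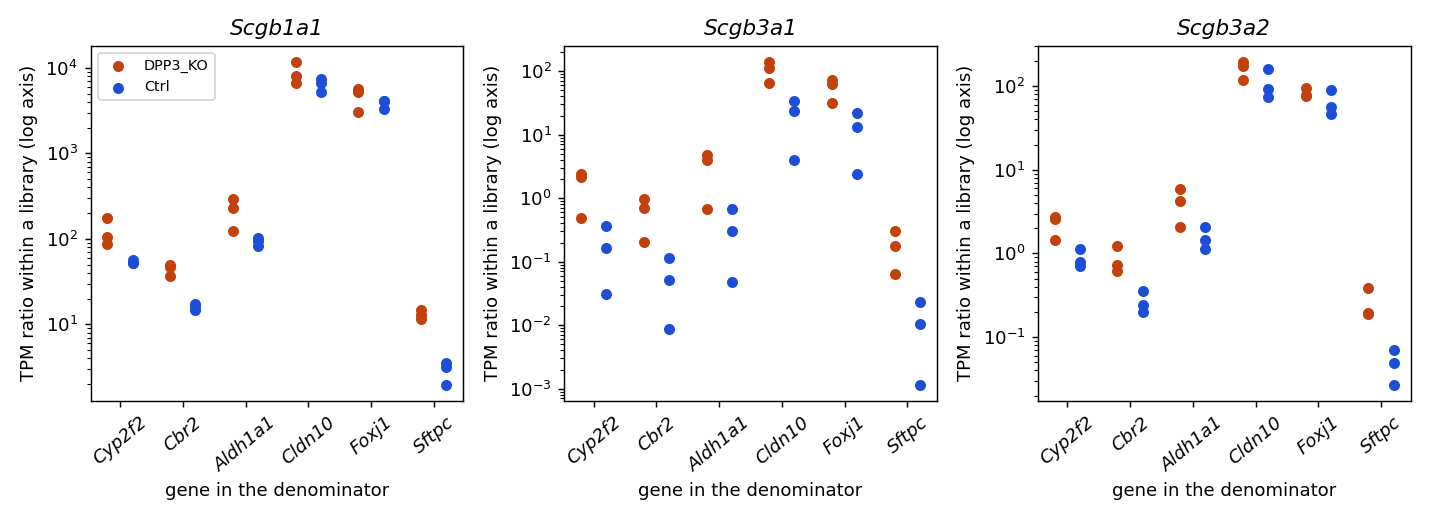
TPM of each secretoglobin divided by that of 6 other genes in the same library, on log axes, with DPP3_KO points (orange) left of Ctrl points (blue). Ratios of Scgb1a1 to Cyp2f2, Cbr2 and Sftpc are separate between the groups, and those to Cldn10 and to the ciliated cell gene Foxj1 overlap.

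Secretory products of the larger airways varied widely between libraries of the same group. Of 9 such genes 8 were tested, and as deposited 1 was called higher, Bpifb1, and 1 lower, Lyz2, a lysozyme gene that macrophages also express. Beside them, 1.38% of all tested genes were called higher and 34.0% lower. On scaled values 0 of the 8 were called by limma, with 5 higher and 0 lower at an unadjusted p under 0.05. Bpifb1, a BPI-fold protein of airway secretions, had 51.8, 231 and 185 TPM in DPP3_KO, against 5.75, 42.6 and 38.5 TPM in Ctrl (log2 difference 2.54 ± 0.83 SE, limma adjusted p = 0.0490, and adjusted p = 0.0944 on scaled values). Bpifa1, the related SPLUNC1 gene, had 203, 475 and 283 TPM in DPP3_KO, against 0.370, 19.5 and 140 TPM in Ctrl, and did not pass (4.25, adjusted p = 0.0574). The antimicrobial lectin gene Reg3g had 24.7, 134 and 260 TPM in DPP3_KO, against 0.120, 10.9 and 40.6 TPM in Ctrl, and did not pass either (3.56, adjusted p = 0.0749). The mucin gene Muc5b and the immunoglobulin transporter gene Pigr stood at 0.84 and 0.52 (adjusted p = 0.159 and 0.223).

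Within each group the library with the least Scgb3a1 also had the least Bpifa1, Bpifb1 and Reg3g. That library was replicate 1 in DPP3_KO and replicate 1 in Ctrl. Scgb3a1 divided by Bpifb1 was 30.6, 19.4 and 20.7 in DPP3_KO, against 7.83, 7.62 and 12.2 in Ctrl. Divided by Bpifa1 it was 7.82, 9.43 and 13.6 in DPP3_KO, against 122, 16.7 and 3.34 in Ctrl, so these ratios overlapped. The part that the amount of larger airway in each piece of lung has in the Scgb3a1 values was not tested.

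**Figure D4:**
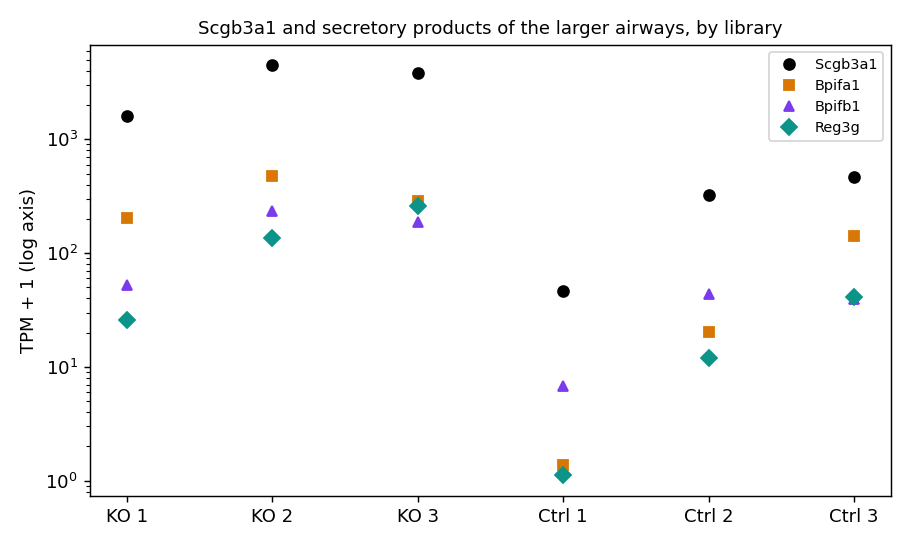
TPM + 1 of Scgb3a1, Bpifa1, Bpifb1 and Reg3g in each library on a log axis, DPP3_KO libraries at the left and Ctrl libraries at the right. All 4 genes are lowest in Ctrl replicate 1, and within DPP3_KO all 4 are lowest in replicate 1.

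Of the listed transcription factors of the airway secretory lining, Sox2 was called higher on both scales. Of 12 factors tested, 1 was called higher and 2 lower as deposited, with a median log2 difference of -0.24. Beside them, 1.38% of all tested genes were called higher and 34.0% lower, with a median of -0.60. On scaled values 2 of the 12 were called higher and 0 lower (limma, 0 lower also at an unadjusted p under 0.05), with a median of 0.37. The shares of all tested genes were then 1.94% and 0.888%. Sox2, which maintains the conducting airway epithelium, had 14.8, 22.1 and 10.5 TPM in DPP3_KO, against 5.47, 6.31 and 5.66 TPM in Ctrl (log2 difference 1.25 ± 0.27 SE, limma adjusted p = 0.0198, and 1.83 with adjusted p = 0.0141 on scaled values). The epithelial ETS factor gene Elf3 stood at 0.53 (adjusted p = 0.0627) and passed on scaled values at 1.16 (adjusted p = 0.0253).

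Nkx2-1 and the C/EBP genes, whose products are known to act on the Scgb1a1 promoter, were not called higher. Nkx2-1 had 78.3, 68.1 and 68.6 TPM in DPP3_KO, against 137, 115 and 67.8 TPM in Ctrl (log2 difference -0.51, limma adjusted p = 0.167), and stood at 0.15 on scaled values. Cebpa was called lower as deposited (-0.72, adjusted p = 0.0270) and stood at -0.07 on scaled values (adjusted p = 0.853). Gata6, a lung epithelial GATA factor gene, was likewise called lower as deposited (-0.78, adjusted p = 0.0427) but not when scaled (-0.16, adjusted p = 0.668). Cebpb and Cebpd stood at -0.97 and 0.50 and did not pass (adjusted p = 0.114 and 0.248).

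Notch signals between neighbouring cells hold airway progenitors to the club rather than the ciliated fate. Of 11 Notch pathway genes tested, 5 were called lower and 0 higher as deposited (limma, 0 higher also at an unadjusted p under 0.05). Their median was -0.99. Beside them, 34.0% of all tested genes were called lower and 1.38% higher as deposited, with a median of -0.60. On scaled values 1 of the 11 was called lower, beside 0.888% of all tested genes, and the median of the 11 was -0.37. That gene was Notch1, at 11.3, 12.4 and 7.88 TPM in DPP3_KO, against 31.4, 35.0 and 27.8 TPM in Ctrl (-1.51, limma adjusted p = 0.0145, and -0.88 with adjusted p = 0.0395 after scaling). With the length trend described below also removed, Notch1 no longer passed (-0.60, adjusted p = 0.0862). The other 4 were the target gene Hey1 (-1.13), the receptor gene Notch3 (-1.64) and the ligand genes Jag2 (-1.39) and Dll4 (-1.38), at adjusted p = 0.0187, 0.0268, 0.0355 and 0.0385. The receptor gene Notch2 and the ligand gene Jag1 did not pass, at -0.99 and -0.84 (adjusted p = 0.0515 and 0.0527), nor did the nuclear effector gene Rbpj at -0.53 and the target gene Heyl at -0.57 (adjusted p = 0.0925 and 0.255). Endothelial cells express several of these genes, and the 9 capillary endothelial markers of the same libraries summed to 533 to 897 TPM in DPP3_KO, against 2085 to 2458 TPM in Ctrl. The part of endothelial cells in the Notch values was not tested.

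Of 7 reported partners and targets of secretoglobins, 4 had enough signal to be tested. Marco, the receptor reported for Scgb3a2, ranged widely, with 1.79, 244 and 123 TPM in DPP3_KO, against 55.0, 42.5 and 256 TPM in Ctrl (log2 difference -0.96 ± 1.61 SE, limma adjusted p = 0.645), and without DPP3_KO replicate 1 the difference was 1.03. Lmbr1l, a membrane receptor reported to bind uteroglobin, was called lower as deposited (-0.95, adjusted p = 0.0171) but not on scaled values (-0.31, adjusted p = 0.330). Secreted phospholipases A2 are enzymes that Scgb1a1 is reported to inhibit. Pla2g1b and Pla2g12a did not pass at -0.52 and -0.18 (adjusted p = 0.154 and 0.432), and stood at 0.13 and 0.43 on scaled values, while Pla2g2d, Pla2g5 and Pla2g10 averaged under 1 TPM.

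**Figure D5:**
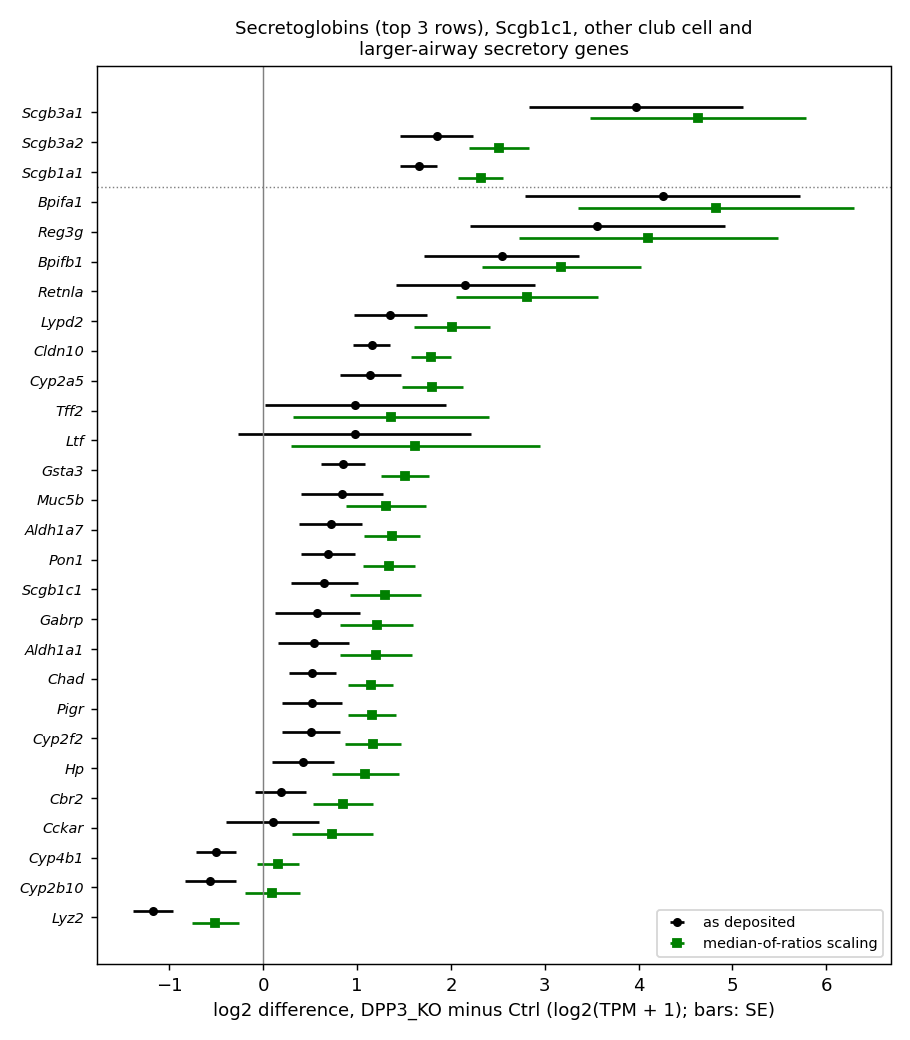
Log2 difference of DPP3_KO minus Ctrl with SE for the 3 secretoglobins, Scgb1c1, and tested genes of the other club cell and larger-airway secretory lists, as deposited (black circles) and after scaling (green squares). Scgb3a1 lies at 3.97 and 4.63, while Cyp2f2 lies at 0.51 and 1.17 and Cbr2 at 0.19 and 0.85.

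Most tested markers of several other cell types moved with the secretoglobins. As deposited, 3 of 14 ciliated and 1 of 4 neuroendocrine genes had a log2 difference below 0. Over all tested genes, 1.38% were called higher as deposited and 1.94% on scaled values. Of 14 ciliated cell genes tested, 8 were called higher as deposited and 9 on scaled values, and the 15 listed markers summed to 1153 to 1228 TPM in DPP3_KO, against 685 to 934 TPM in Ctrl. Foxj1, the regulator of motile cilia, had 50.6, 71.2 and 53.2 TPM in DPP3_KO, against 18.6, 24.4 and 21.6 TPM in Ctrl (log2 difference 1.39, limma adjusted p = 0.0145). The ratio of Scgb1a1 to Foxj1 overlapped, at 5681, 3048 and 5235 in DPP3_KO and 4143, 4154 and 3311 in Ctrl, and so did that of Scgb3a2 to Foxj1. Of 4 neuroendocrine genes tested 2 rose, the CGRP gene Calca (1.98, adjusted p = 0.0160) and Resp18 (1.26, adjusted p = 0.0227), neither of which passed on scaled values with the length trend removed (adjusted p = 0.0521 and 0.0607), and the 7 listed markers summed to 24.6 to 34.6 TPM in DPP3_KO, against 12.0 to 15.0 TPM in Ctrl. Of 9 heart muscle genes 6 were called higher, among them Tnnt2 (1.59, adjusted p = 0.0145), and the list summed to 2139 to 2303 TPM in DPP3_KO, against 547 to 1152 TPM in Ctrl.

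As deposited, alveolar and endothelial markers went the other way, while 34.0% of all tested genes were called lower. Of 9 alveolar type 1 genes 8 were called lower as deposited and 2 on scaled values, with sums of 1131 to 2592 TPM in DPP3_KO, against 3651 to 6015 TPM in Ctrl. On scaled values 0.888% of all tested genes were called lower. Pdpn, the podoplanin gene of alveolar type 1 cells, fell by 1.92 as deposited and by 1.28 on scaled values (limma adjusted p = 0.0144 and 0.0449), and Cdh5, the cadherin gene of endothelial cells, by 2.55 and 1.89 (adjusted p = 0.0144 and 0.0331). With the length trend also removed, Cdh5 stood at -1.74 and did not pass (adjusted p = 0.0513). The macrophage mannose receptor gene Mrc1 fell by 2.22 and 1.59 (adjusted p = 0.00449 and 0.0100). The 9 alveolar macrophage markers summed to 225 to 1687 TPM in DPP3_KO, against 2128 to 3697 TPM in Ctrl, and the 10 alveolar type 2 markers to 19684 to 31958 TPM in DPP3_KO, against 28160 to 51941 TPM in Ctrl. Of the 10 type 2 genes 5 were called lower as deposited, among them the phosphate transporter gene Slc34a2 (-1.48, adjusted p = 0.0155). On scaled values 0 of the 10 were called by limma, with 3 lower at an unadjusted p under 0.05. Another 3 of the 10, among them Sftpc at 0.10, stood above 0 on scaled values. Goblet and basal cell markers were scarce. The 8 goblet markers summed to 5.61 to 11.1 TPM in DPP3_KO, against 4.18 to 5.56 TPM in Ctrl, with Clca1 and the goblet mucin gene Muc5ac below 1 TPM on average and Tff3 and Gcnt3 at 0 in every library. The 7 basal markers summed to 5.72 to 11.6 TPM in DPP3_KO, against 4.46 to 14.9 TPM in Ctrl. The part of the mix of airway, alveolar and heart tissue in the secretoglobin values was not tested.

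Gene length moved with the group as well, and the 3 genes are short, at 476 bases for Scgb1a1, 493 for Scgb3a1 and 842 for Scgb3a2. On scaled values the median log2 difference was 0.20 over the 921 tested genes below 600 bases and 0.35 over the 1169 genes of 600 to under 1000 bases, against -0.25 over the 3950 genes of 4000 bases or more. With that trend removed in each library, the log2 differences were 2.04 for Scgb1a1, 4.35 for Scgb3a1 and 2.17 for Scgb3a2. Mitochondrially encoded genes took 6.47%, 6.92% and 4.17% of TPM in DPP3_KO, against 4.43%, 5.13% and 4.48% in Ctrl, so the groups overlapped.

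The genes whose pattern over the 6 libraries was most like that of each secretoglobin were found by Pearson's r of log2(TPM + 1) among the tested genes with a given name. For Scgb1a1 these were Fam166c (r = 0.989), the heart muscle gene Lrrc10 (0.981), Nnt (0.979), Lrrc26 (0.971) and the cardiac leiomodin gene Lmod2 (0.971). For Scgb3a2 they were the cilium-associated genes Cfap276 (0.996), Fam183b (0.991) and Cfap299 (0.990), followed by the iodotyrosine deiodinase gene Iyd (0.986) and Lmod2 (0.979). For Scgb3a1 they were the non-coding RNA Lncpint (0.992), the amylase gene Amy1 (0.969), Bpifb1 (0.969), Efcab11 (0.967) and the ribosomal protein gene Rps7 (0.965). These 6 points, too, share the difference between the groups.

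Of these genes, Nnt, the mitochondrial transhydrogenase gene, was singled out after its values were seen. The entry listed above had 9.41, 5.31 and 6.37 TPM in DPP3_KO, against 0.02, 0 and 0 TPM in Ctrl. That entry was thus near or at 0 in every Ctrl library. Another entry with the symbol Nnt was called lower as deposited (-0.80), but did not pass with no filter (limma adjusted p = 0.0840). On scaled values it stood at -0.17 (adjusted p = 0.614), so the entries of this gene did not go the same way. Loss of Nnt is known from the C57BL/6J mouse strain, whereas the labels describe the mice only as NSG. Whether the hosts of the groups differ in genetic background was not tested, and any such difference cannot be told apart from the tumour genotype.

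The 3 genes lie on different chromosomes, and their neighbours did not rise with them. By gene order in GENCODE release M21, which uses GRCm38, the protein-coding genes beside Scgb1a1 on chromosome 19 are Ahnak and Asrgl1. Ahnak was called lower as deposited (-1.27, limma adjusted p = 0.0209) and Asrgl1 did not pass (-0.11, adjusted p = 0.741). Beside Scgb3a1 on chromosome 11, the lymphatic receptor gene Flt4 had 4.38, 4.40 and 6.04 TPM in DPP3_KO, against 20.9, 19.6 and 12.5 TPM in Ctrl (-1.63, adjusted p = 0.0145), and Cnot6 was called lower too (-0.95, adjusted p = 0.0258). None of these 4 neighbours was called on scaled values, at adjusted p = 0.225, 0.210, 0.0818 and 0.369. Scgb3a2 lies on chromosome 18, where its neighbours Spink1 and Gm94 were at 0 to 0.31 TPM in all libraries. Neighbours were looked up after the values of the 3 genes were known.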

How the data were processed

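RNA sequencing was done on 6 lung samples, 3 DPP3_KO and 3 Ctrl, grouped by their titles; the third Ctrl title reads 232 where the others read 231 and was kept in Ctrl. The library kit was Illumina TruSeq, per the labels' protocols. The authors deposited 1 matrix of TPM values for 56980 genes, and the submitters' processing notes name HISAT2, StringTie, RSEM and GRCm39 without versions or roles. The treatment of human reads, the annotation release and the strand setting were not stated.

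DPP3_KO minus Ctrl was fitted on log2(TPM + 1) with limma 3.58.1 in R 4.3.3 (intensity trend, two-sided), over the 15650 genes whose mean over all libraries reached 1 TPM, adjusted by Benjamini-Hochberg with a threshold of 0.05. The 3 secretoglobins passed this filter. Their SEs come from their own replicates, and they got no test. The fit was tested on simulated data with known answers. Median-of-ratios factors used the tested genes above 0 in all 6 libraries.

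The members and gene lists were chosen with earlier results of these data known. The genes named are those of the 5 airway, regulator, Notch and partner lists that passed plus up to 4 that did not, the members of the other lists with the smallest p-values, and the 5 genes most like each secretoglobin; Cyp2f2, Cbr2, Aldh1a1, Clca1, Muc5ac, Tff3, Gcnt3, Sftpc and the neighbouring genes were added after values were seen. One gene that the rule names is counted but not reported here by name. Alternatives were other scalings, pseudocounts, filters, no trend, the replicate block and each sample left out; removing the length trend (lowess span 0.3) was added after seeing the data.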

Additional observations from a re-analysis of the deposited data

How the results depend on the processing

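The 3 secretoglobins were higher in DPP3_KO under every alternative tried, except that quantile normalization gave Scgb1a1 a log2 difference of 0, by construction, since it is the top gene of each library. Scgb1a1 stood at 2.32 after median-of-ratios scaling, 1.98 with TPM rescaled without the 3 secretoglobins and 2.04 with the length trend also removed, and Scgb3a2 at 2.51 after median-of-ratios scaling. Leaving out 1 library gave 1.55 to 1.80 for Scgb1a1, 2.94 to 4.62 for Scgb3a1 and 1.65 to 2.21 for Scgb3a2. Genes called higher numbered 133 without the 3 secretoglobins and 327 after quantile normalization, against 216 as deposited, and 1 to 146 with 1 library left out. Genes called lower numbered 5321 as deposited, 139 after median-of-ratios scaling, 342 without the 3 secretoglobins, 140 after quantile normalization, 3093 with no filter, 91 with the length trend also removed and 18 to 4993 with 1 library left out. Of the other club cell genes, 5 were called higher as deposited, 1 without the 3 secretoglobins, 3 after quantile normalization, 1 with no filter, 2 with the length trend also removed and 0 to 3 with 1 library left out, and 0 to 2 were called lower (Cyp2b10 and Cyp4b1, without DPP3_KO replicate 1). The cause of these moves was not tested.

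With the replicate block, 3 other club cell genes were called higher, and 212 genes were called higher and 4734 lower over all genes. Bpifa1, Reg3g, Muc5b and the goblet gene Agr2 then passed (limma adjusted p = 0.0443, 0.0290, 0.0476 and 0.0334). In turn 3 named genes no longer passed, among them Lypd2 and Jag2 (adjusted p = 0.0528 and 0.0622). Deviations of same-numbered libraries correlated at 0.27, -0.21 and 0.15, and those of differently numbered libraries at -0.48 to 0.41. With 3 libraries in each group, these values cannot settle whether the replicate numbers pair the samples.

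Signs turned for genes that did not pass either way. After median-of-ratios scaling these were Cyp4b1 (0.16), Fcgbp (0.22), Nkx2-1 (0.15), Rbpj (0.084), Heyl (0.026), Pla2g1b (0.13) and Pla2g12a (0.43). Removing the length trend as well gave Cyp4b1 (0.038), Fcgbp (0.51), Nkx2-1 (0.17), Jag1 (0.010), Rbpj (0.32), Heyl (0.21) and Pla2g12a (0.24). After quantile normalization they were Fcgbp (0.23), Nkx2-1 (0.025), Rbpj (0.15), Heyl (0.066), Pla2g1b (0.11) and Pla2g12a (0.47), and Pla2g12a was at 0.12 without the 3 secretoglobins. With 1 library left out, Marco ranged from -2.20 to 1.03 (positive without DPP3_KO replicate 1) and Spdef from -0.089 to 0.20 (negative without Ctrl replicate 3). TPM keep no depth, so the precision of low values is unknown.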
